A study of Homo sapiens with 16 samples.

Results

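The AP-1 and EGR immediate early factors described here are 10 genes, FOS, FOSB, FOSL1, FOSL2, JUN, JUNB, JUND, EGR1, IER2 and IER3. They were chosen by gene symbol from the 20612 genes of the deposited expression table, and all 10 passed the filter on low values that left 12466 genes for testing. They were followed across 8 groups of 2 libraries of the HCT116 line, which came from a human colorectal cancer. In p53-/- derivatives, which lack the tumour suppressor p53, cells received Nutlin-3A and Entinostat together (the combination), 2.5 µM Entinostat, 5 µM Nutlin-3A or the vehicle DMSO for 8 h. Cells with the p53 gene intact (p53+/+) received the same 4 treatments. Nutlin-3A occupies the pocket of MDM2 that holds p53, so that p53 is no longer degraded, and Entinostat inhibits class I histone deacetylases. All groups grew in McCoy's 5A medium with serum. The design sets each drug and their combination against vehicle in lines described as isogenic for p53; how many clones each line holds is not stated. Nothing in the labels says that replicates were grown separately, so p-values reflect the spread of these libraries alone, which may be technical.

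AP-1 is a dimer of basic leucine zipper proteins. A JUN protein (JUN, JUNB, JUND) pairs with another JUN, with a FOS protein (FOS, FOSB and the products FRA1 and FRA2 of FOSL1 and FOSL2) or with an ATF protein. Immediate early genes are transcribed within minutes of a growth signal or a stress from factors already present in the cell, and in colorectal cancer cells they are known outputs of RAS and ERK signalling. EGR1 is a zinc finger factor induced the same way, whereas IER2 and IER3 belong to neither family and encode small nuclear or stress-response proteins. Expression is given as RPKM, reads per kilobase of gene scaled to the reads of the library. In bulk RNA, fewer cells with a transcript and less transcript per cell cannot be told apart.

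The promoters of 5 genes whose RNA moved together under Entinostat, and that of FOSB, which did not move with them under Entinostat alone, are shown for the 150 bases before the start of transcription. RefSeq promoter sequences (build GRCh38.p14) matched 8 of the 10 genes, and FOSL1 and IER3 had no entry. Capitals mark the CRE core TGACG, the JUN site TGACATCA, the TATA box TATAAA and the CArG box, on either strand.
FOS, chr14:75278678-75278827, plus strand: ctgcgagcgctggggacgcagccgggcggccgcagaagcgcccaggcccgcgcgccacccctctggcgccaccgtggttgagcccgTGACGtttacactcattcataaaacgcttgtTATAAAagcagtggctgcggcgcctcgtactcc
JUN, chr1:58784048-58784197, minus strand: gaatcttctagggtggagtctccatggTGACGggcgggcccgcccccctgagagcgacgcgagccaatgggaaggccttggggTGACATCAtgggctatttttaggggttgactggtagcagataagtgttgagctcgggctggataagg
JUNB, chr19:12791336-12791485, plus strand: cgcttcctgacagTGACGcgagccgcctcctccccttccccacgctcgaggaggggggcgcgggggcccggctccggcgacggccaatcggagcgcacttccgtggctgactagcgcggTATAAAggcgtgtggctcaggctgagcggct
EGR1, chr5:138465329-138465478, plus strand: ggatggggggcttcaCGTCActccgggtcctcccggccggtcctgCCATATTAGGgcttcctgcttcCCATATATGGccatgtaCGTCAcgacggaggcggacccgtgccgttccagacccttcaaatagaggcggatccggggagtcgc
IER2, chr19:13150261-13150410, plus strand: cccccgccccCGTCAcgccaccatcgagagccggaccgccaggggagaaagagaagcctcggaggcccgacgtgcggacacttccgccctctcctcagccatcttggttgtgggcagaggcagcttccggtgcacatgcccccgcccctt
FOSB, chr19:45467846-45467995, plus strand: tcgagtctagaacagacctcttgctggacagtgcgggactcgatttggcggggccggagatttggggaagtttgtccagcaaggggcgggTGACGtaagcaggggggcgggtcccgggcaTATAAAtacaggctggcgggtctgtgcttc

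Within 250 bases before the start, all 8 promoters held the CRE core TGACG on one strand or the other, as did 21.2% of the 35116 promoters in the table and 27.4% of the 16148 with at least 60% G and C. The TATA box stood in FOS, FOSB and JUNB, starting 33, 30 and 31 bases before the start, and in 10.7% of all promoters and 2.58% of the GC-rich ones. EGR1 held 2 CArG boxes, the element bound by serum response factor, which 1.16% of all promoters and 0.78% of the GC-rich ones held. JUND held the full site TGACGTCA (1.65% of all and 2.38% of GC-rich promoters), which contains the core on both strands. JUN held TGACATCA (2.37% and 0.898%). The GC box GGGCGG and the ETS core GGAAG each stood in 6 of 8, against 42.6% and 65.1% of all promoters and 75.4% and 68.1% of those with at least 60% G and C, and all 8 promoters were in that class. The AP-1 site TGACTCA (4.2% of all and 2.13% of GC-rich promoters) matched in 0 of 8. So did the EGR1 motifs GCGGGGGCG (4.72% and 9.69%) and GCGTGGGCG (0.72% and 1.35%). A match is a string of letters in a window and says nothing of binding. Sequence farther from the start was not searched, so a motif without a match here may lie outside the window.

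The libraries carried 45902800 to 55507300 alignments each. MDM2, a p53 target, had 328 and 268 RPKM in p53+/+ Nutlin-3A libraries, against 20.4 and 20 with DMSO, and CDKN1A had 1060 and 763, against 89.2 and 66.1. Epithelial markers were high, with EPCAM between 126 and 191 RPKM and KRT8 between 740 and 1650, whereas VIL1 stayed at or under 0.0435 RPKM. Each of 5 immune and 3 endothelial markers was at most 0.238 RPKM in every library, with PTPRC at 0 in 12 libraries and PECAM1 in 11. HBB was at 0 in 15 libraries, while HBA1 had 0.296 to 3.23 RPKM. Of the 3 fibroblast markers COL1A1 had 2 to 5.8 RPKM, COL3A1 at most 0.0434 and PDGFRB at most 0.134.

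In DMSO the 10 genes spanned a wide range of levels, on a per-length scale that allows comparison between genes. In p53-/- cells FOSL1 was highest (105 ± 4.34 RPKM, mean ± SD, n = 2), then IER2 (74 ± 10.8), IER3 (60 ± 12.5) and JUNB (51.9 ± 12.6). In p53+/+ cells the mean of IER2 (77.4 ± 15.6) was above those of FOSL1 (57.9 ± 15.2), JUNB (48.5 ± 15.4) and IER3 (43.9 ± 6.72). The lowest in each genotype were FOSL2 (8.96 ± 0.366 in p53-/- and 6.84 ± 0.822 in p53+/+), JUN (5.92 ± 0.202 and 6.43 ± 1.89) and FOSB (1.91 ± 1.07 and 1.89 ± 1.22). Every FOSL1 value lay above every IER2 value in p53-/- cells, where FOSL2, JUN and FOSB did not overlap. IER3 overlapped with IER2 and with JUNB there. In p53+/+ cells IER2 and FOSL1 overlapped, and in replicate 2 FOSL1 was the higher (68.7 against 66.3 RPKM). FOSL1, JUNB and IER3 overlapped with one another, as did FOSL2 and JUN. FOS was among the genes whose replicates lay farthest apart, with 21.7 and 6.87 RPKM in p53-/- and 46.4 and 14.1 RPKM in p53+/+ DMSO cells. JUNB held 59% and 59.4% of summed JUN, JUNB and JUND RPKM in p53-/- and 53.5% and 49.1% in p53+/+ DMSO libraries.

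**Figure D1:**
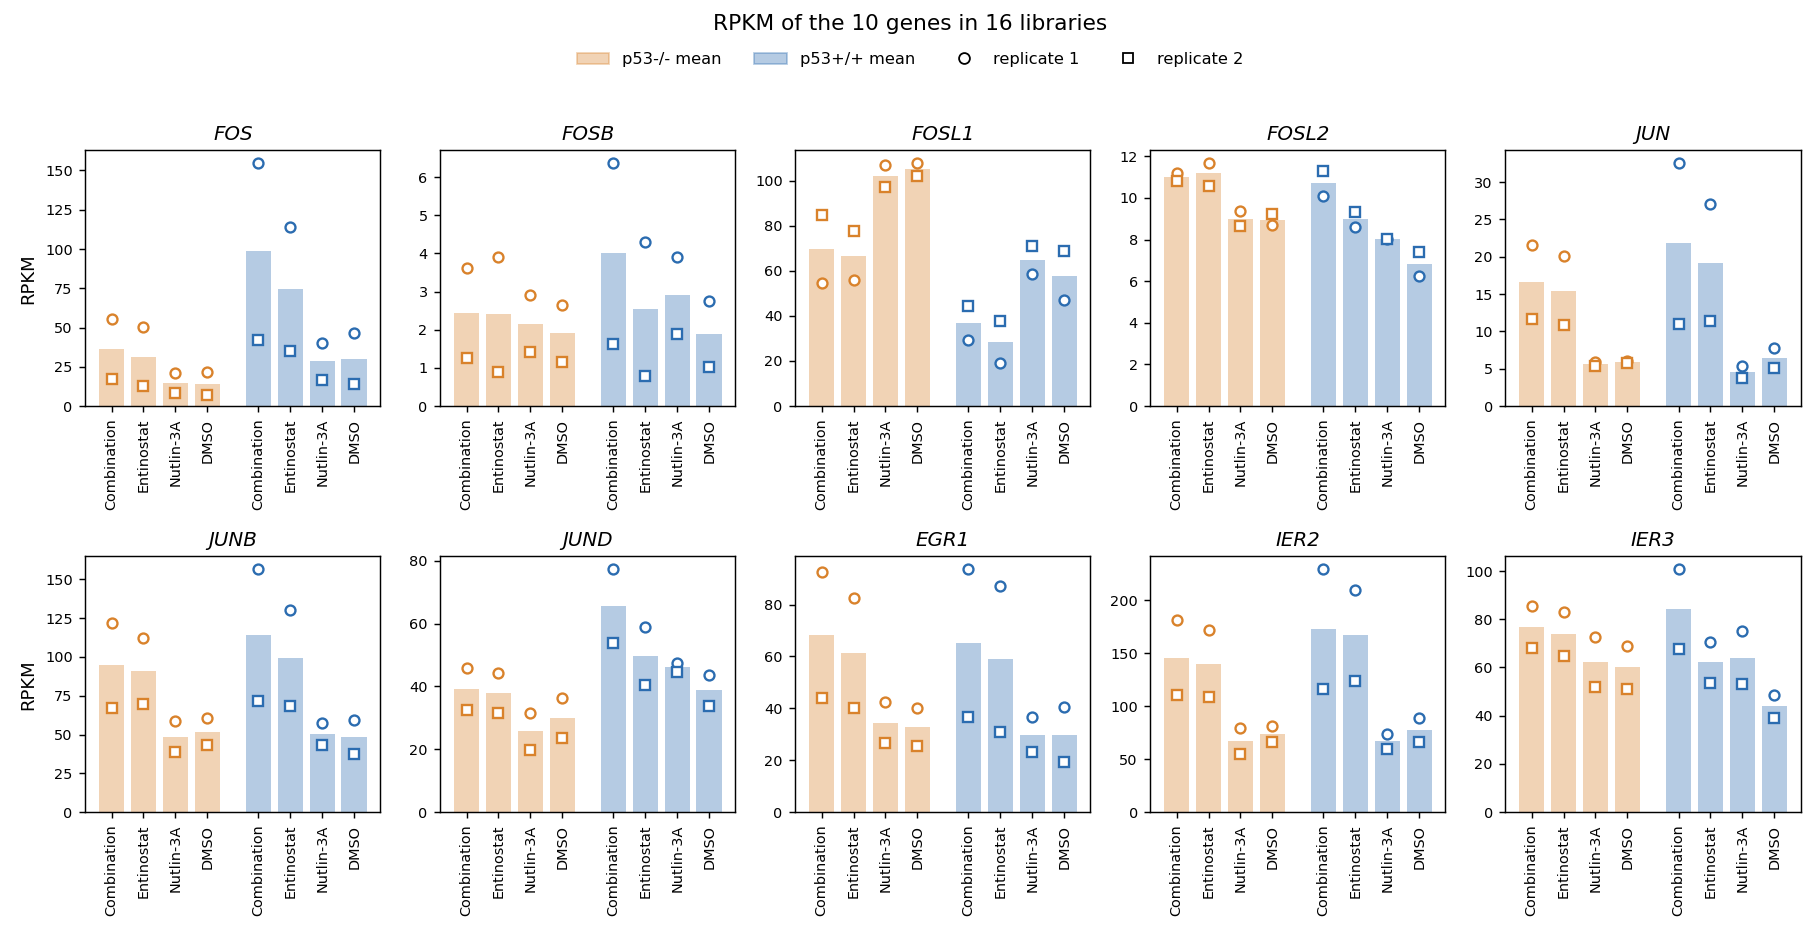
RPKM (y axis, linear from 0) of the 10 genes in each group, with p53-/- in orange and p53+/+ in blue. Bars are means of 2 libraries, circles replicate 1 and squares replicate 2. FOS reached 155 RPKM in replicate 1 of the p53+/+ combination and 6.87 in replicate 2 of p53-/- DMSO cells.

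The libraries numbered 1 and 2 stood apart in 8 of the 10 genes, each higher in replicate 1 in every group. FOS, which forms AP-1 with JUN proteins, was higher in replicate 1 in 8 of 8 groups, by 1.23 to 1.97 on the log2 scale (mean 1.63). FOSB had a mean offset of 1.28 and EGR1 of 0.99, and these 3 genes ranked 1, 2 and 3 among the 12466 tested genes for this offset. JUNB (0.72), JUN (0.71), IER2 (0.58), JUND (0.47) and IER3 (0.42) were higher in replicate 1 in 8 of 8 groups as well. FOSL2 showed no steady offset (-0.03, higher in 4 of 8), and FOSL1 was higher in replicate 2 in 6 of 8 groups (-0.4). Over all tested genes the median offset was 0.01, and 1.72% had an offset beyond 0.5 in either direction. Among heat shock genes, which respond to handling, DNAJB1 was offset by 0.41, HSPA1B by 0.17, HSPA8 by 0.1, HSPA1A by 0, DNAJA1 by -0.2 and HSPH1 by -0.69. The part of handling, timing or culture in the offset was not tested.

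**Figure D2:**
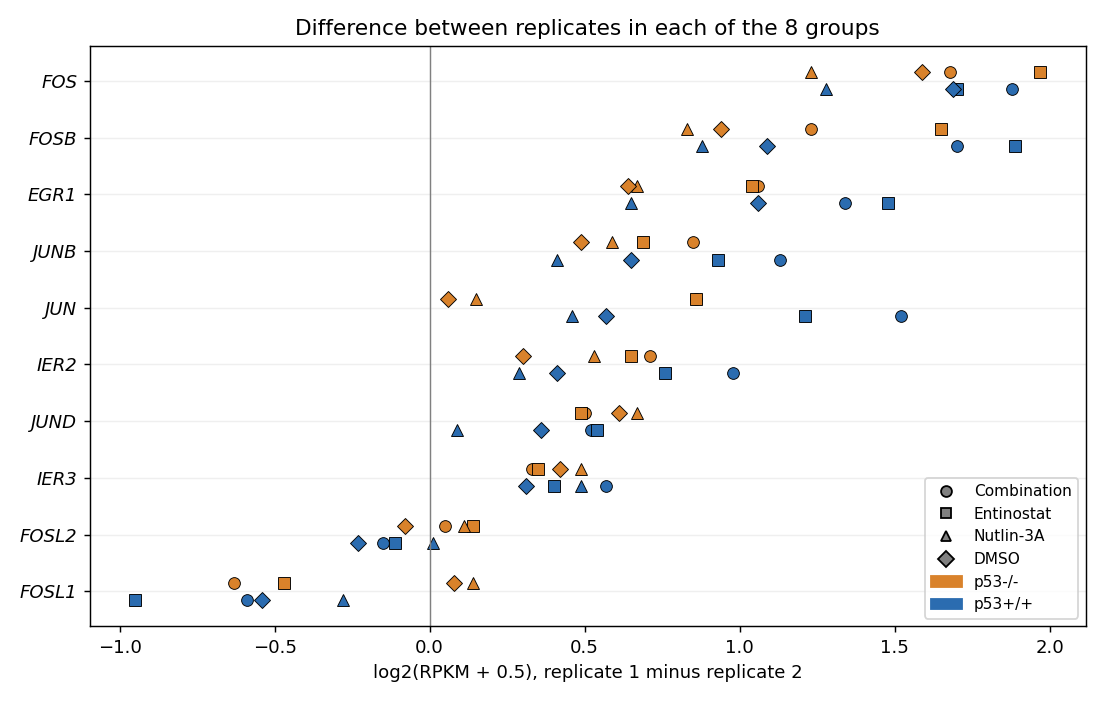
Replicate 1 minus replicate 2 in log2(RPKM + 0.5) (x axis) for the 10 genes in each of the 8 groups. Symbols give the treatment and colours the genotype. All 8 values of FOS lie at or above 1.23, whereas those of FOSL1 run between -0.95 and 0.14.

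Each comparison was fitted first without, then with, the replicate number as a blocking term. With the block the standard error of FOS fell to 0.15, against 0.95 without it, and log2 changes stayed the same. Calls are at an adjusted p under 0.05 by limma, and counts of the 10 genes below name their model.

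With Entinostat, RNA of JUN, FOS, IER2, EGR1 and JUNB averaged 1.75 to 2.99 times the DMSO level in cells of either genotype. Their folds ran from 1.84 to 3.48 in replicate 1 and from 1.57 to 2.48 in replicate 2. FOSL1 RNA was lower. In p53+/+ cells, 2 genes rose and 1 fell without the block (15.1% of all tested genes were called higher and 12.4% lower). With the block 8 rose and 1 fell (24.2% and 20.4%), and FOSB passed neither way. In p53-/- cells 1 rose without the block, and with it 8 rose and 1 fell (15% and 24.4% of all genes higher, 13.3% and 21.1% lower). The median log2 change of the 10 genes was 0.69 in p53+/+ and 0.56 in p53-/- cells, beside 0.01 and 0.02 over all tested genes.

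JUN, the founding AP-1 subunit, had 27 and 11.4 RPKM in p53+/+ Entinostat libraries, against 7.77 and 5.09 in DMSO. With Entinostat p53-/- cells had 20.1 and 10.8 RPKM, against 6.06 and 5.78 with DMSO. Every Entinostat library lay above every DMSO library of its genotype. Its log2 change was 1.41 ± 0.5 (SE) in p53+/+ (adjusted p = 0.052 without and 0.0012 with the block) and 1.25 ± 0.5 in p53-/- cells (0.079 and 0.0025). It was larger in replicate 1 (1.73 in p53+/+ and 1.65 in p53-/-) than in replicate 2 (1.09 and 0.85).

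FOS had 114 and 35 RPKM with Entinostat in p53+/+ cells, against 46.4 and 14.1 with DMSO. The groups overlapped because replicate 2 with Entinostat lay under replicate 1 with DMSO, yet the fold was 2.47 in replicate 1 and 2.48 in replicate 2. The log2 change was 1.29 (adjusted p = 0.34 without and 4.6e-05 with the block). FOS in p53-/- cells had 50.3 and 12.5 RPKM with Entinostat, against 21.7 and 6.87 with DMSO, again overlapping, with folds of 2.31 and 1.82 (log2 change 1; adjusted p = 0.46 and 0.00023). FOSB, a FOS relative able to form AP-1 with the same partners, did not follow it. FOSB had 4.29 and 0.795 RPKM in p53+/+ Entinostat libraries, against 2.75 and 1.03 in DMSO, higher in replicate 1 and lower in replicate 2, and its adjusted p was 0.6 with the block.

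JUNB, an AP-1 subunit with weaker activating capacity than JUN, had 130 and 68.2 RPKM with Entinostat, against 59.3 and 37.6 with DMSO, in p53+/+ cells. All Entinostat values lay above all DMSO values. The log2 change was 0.99 (adjusted p = 0.11 without and 0.00013 with the block), and in p53-/- cells it was 0.78 (0.2 and 0.00065). EGR1 had 87.2 and 31 RPKM in p53+/+ Entinostat libraries, against 40.5 and 19.2 in DMSO, with overlap, and 82.7 and 40.1 against 40.1 and 25.5 in p53-/- cells, where the lowest Entinostat library and the highest DMSO library were nearly equal. Its log2 changes were 0.89 in p53+/+ (adjusted p = 0.29 without and 0.0014 with the block) and 0.84 in p53-/- cells (0.32 and 0.002). IER2, a small nuclear protein, had 210 and 124 RPKM, against 88.5 and 66.3, in p53+/+ cells, and 172 and 109, against 81.6 and 66.4, in p53-/- cells, with no overlap in either. Its log2 change of 1.07 passed without the block in p53+/+ (adjusted p = 0.045) and that of 0.89 only with it in p53-/- cells (0.086 and 3e-04). The p53+/+ call without the block was lost by limma with no filter (0.1), no variance trend (0.051) or the compared groups alone (0.056).

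JUND, an AP-1 subunit that is expressed more steadily than its relatives, and IER3, a stress-response protein, had smaller log2 changes. JUND had 58.9 and 40.3 RPKM with Entinostat, against 43.7 and 33.9 with DMSO, in p53+/+ cells, with overlap. Its log2 changes of 0.33 in p53+/+ and 0.35 in p53-/- cells passed only with the block (adjusted p = 0.025 and 0.02). IER3 rose with the block, by 0.49 in p53+/+ (adjusted p = 0.00021) and by 0.3 in p53-/- cells (0.0046). FOSL2, which encodes FRA2, rose in both models by a small amount with little replicate spread. FOSL2 had 8.62 and 9.34 RPKM, against 6.26 and 7.42, in p53+/+ (log2 change 0.37 ± 0.1, adjusted p = 0.019), and 11.7 and 10.6, against 8.7 and 9.22, in p53-/- cells (0.3 ± 0.1, adjusted p = 0.045). Without the block, limma lost the p53-/- call with no filter (0.051), median of ratios scaling (0.094), quantile normalization (0.057) or the compared groups alone (0.063).

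FOSL1, which encodes FRA1, a subunit known to accumulate in cells with active ERK signalling, moved the other way. It had 19.2 and 37.6 RPKM with Entinostat in p53+/+ cells, against 47.2 and 68.7 with DMSO. The p53-/- values were 55.9 and 77.5 RPKM, against 108 and 102. No Entinostat library reached a DMSO library of its genotype. The log2 change was -1.07 ± 0.31 in p53+/+ (adjusted p = 0.025 without and 0.001 with the block), and -0.67 in p53-/- cells (0.13 and 0.016). The p53+/+ call without the block was lost by limma with no filter (0.063).

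**Figure D3:**
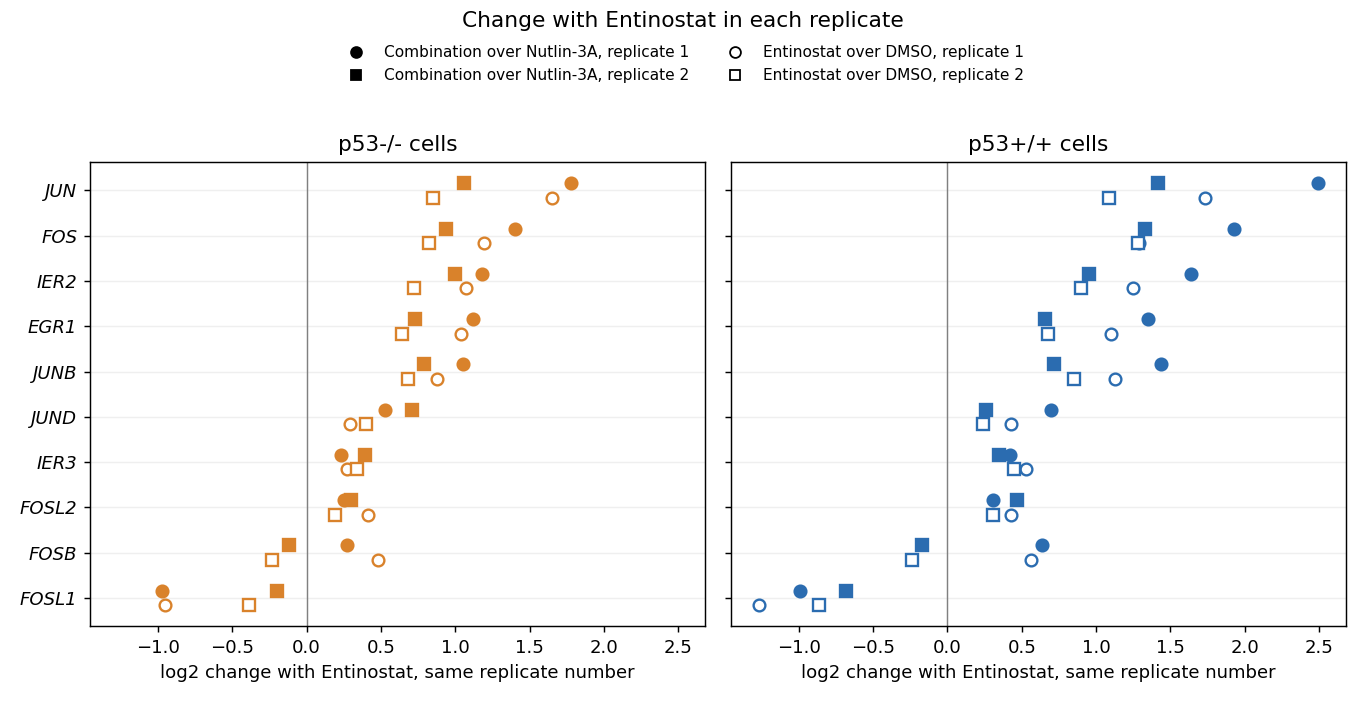
Log2 change with Entinostat (x axis) between libraries of the same replicate number, p53-/- on the left and p53+/+ on the right. Filled symbols are the combination over Nutlin-3A, open symbols Entinostat over DMSO, circles replicate 1 and squares replicate 2. JUN, FOS, IER2, EGR1, JUNB, JUND, IER3 and FOSL2 lie above 0 in all 8 pairs, FOSL1 lies below 0 in all 8, and FOSB is split 4 to 4.

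Several of these calls rested on single libraries. Without the block, limma also called fewer genes over all tested genes when any single library of these comparisons was left out. The groups compared then held unequal numbers of replicate 1 and replicate 2 libraries. Without the block in p53+/+ cells, FOSL1 lost its Entinostat call without Entinostat replicate 1 (adjusted p = 0.26) or DMSO replicate 2 (0.18). FOSL2 lost it without Entinostat replicate 1 (0.069), Entinostat replicate 2 (0.095) or DMSO replicate 1 (0.15), and IER2 without Entinostat replicate 1 (0.33), DMSO replicate 1 (0.079) or DMSO replicate 2 (0.23). FOSL2 in p53-/- cells lost it without any of the 4 libraries (adjusted p between 0.054 and 0.28). With the block, between 7 and 9 genes were called in p53+/+ and between 6 and 8 in p53-/- cells when each library was left out. JUND, FOSL2 and, in p53-/- cells, FOSL1 were the genes lost. In p53+/+ cells JUND was lost without Entinostat replicate 1 (0.15), Entinostat replicate 2 (0.06) or DMSO replicate 1 (0.17), and FOSL2 without Entinostat replicate 2 (0.056) or DMSO replicate 1 (0.1). In p53-/- cells Entinostat replicate 1 cost FOSL1 (0.091), FOSL2 (0.22) and JUND (0.1), Entinostat replicate 2 cost JUND (0.068), DMSO replicate 1 cost FOSL1 (0.21) and FOSL2 (0.11), and DMSO replicate 2 cost FOSL2 (0.058) and JUND (0.15). FOS, JUN, JUNB, EGR1, IER2 and IER3 kept their calls in the block model without any single library.

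Taking Entinostat with and without Nutlin-3A together gave 4 libraries on each side in a genotype. JUN was 3.72-fold higher in p53+/+ (log2 change 1.68 ± 0.35, adjusted p = 0.0021) and 2.77-fold higher in p53-/- cells (1.33 ± 0.35, 0.0087) without the block. IER2 was 2.36-fold and 2.02-fold higher (adjusted p = 0.0026 and 0.008), and FOSL2 1.32-fold and 1.23-fold (0.0012 and 0.0068), and these 3 kept their calls without any single library. JUNB was 2.16-fold and 1.84-fold higher (adjusted p = 0.015 and 0.04), and FOSL1 was 0.53-fold and 0.658-fold the level without Entinostat (0.0039 and 0.036). In all, 4 genes rose and 1 fell in each genotype without the block (24.6% of all genes were called higher and 24.8% lower in p53+/+, 24.5% and 20.9% in p53-/-). With the block 8 rose and 1 fell in each (30.8% and 31.4%, 31.5% and 27.8%). Without the block, limma lost the p53-/- call of FOSL1 with no filter (0.082) or quantile normalization (0.084). That of JUNB was lost with no filter (0.093). JUNB lost its call in p53+/+ cells without combination replicate 1 (0.068), Entinostat replicate 1 (0.071), Nutlin-3A replicate 2 (0.055) or DMSO replicate 2 (0.064). The p53-/- call of JUNB was lost without the libraries of the same 4 names (0.16, 0.14, 0.13 and 0.13). FOSL1 in p53-/- cells lost its call without replicate 1 of the combination (0.14) or of Entinostat (0.13), either Nutlin-3A library (0.093 and 0.062) or either DMSO library (0.084 and 0.071). The sum of the 3 fibroblast markers, nearly all COL1A1, was higher with Entinostat too, at 4.42 to 4.65 RPKM, against 2.29 to 2.55 in DMSO, in p53+/+ cells, and at 3.86 to 4.22, against 2.12 to 2.48, in p53-/- cells. Summed epithelial markers, mostly KRT8, KRT18 and KRT19, were at 2790 to 2860 RPKM with Entinostat, against 2080 to 2280 with DMSO, in p53+/+ cells. In p53-/- cells they were at 2340 to 2650, against 2070 to 2210. Single epithelial markers went both ways in this comparison of 4 libraries on each side. Of 6 tested, 4 rose and 1 fell in p53+/+ and 3 rose and 1 fell in p53-/- cells without the block. The part of either marker set in the result was not tested.

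Among the 4 p53+/+ groups the combination had the highest mean of 9 of the 10 genes, FOSL1 being the exception. FOS had 155 and 41.9 RPKM with the combination, against 46.4 and 14.1 with DMSO, JUN 32.6 and 11, against 7.77 and 5.09, and IER3 101 and 67.8, against 48.6 and 39.1. JUN and IER3 did not overlap with DMSO, whereas FOS did. Summed epithelial markers were at 4010 to 4640 RPKM with the combination, against 2080 to 2280 with DMSO, and fibroblast markers at 5.07 to 5.93, against 2.29 to 2.55. Of 6 epithelial markers tested, 3 rose and 2 fell without the block (23.2% and 26.8% of all genes). The part of either marker set in the result was not tested. Over DMSO, 5 genes rose and none fell without the block (FOSL2, JUN, JUNB, IER2 and IER3, against 23.2% of all genes higher and 26.8% lower). With the block 9 rose and FOSL1 fell (30.6% and 33.4%). JUN changed by 1.52 ± 0.5 (adjusted p = 0.023 without the block), IER3 by 0.92 ± 0.25 (0.01) and FOS by 1.64 (0.17 without and 1.9e-06 with the block). Among the 17 comparisons FOSB passed in this 1, with 6.38 and 1.62 RPKM, against 2.75 and 1.03 with DMSO, and with the block alone (log2 change 0.77, adjusted p = 0.42 without and 0.0099 with it). Without combination replicate 1 the calls without the block fell to 1, as JUN (0.26), JUNB (0.35), IER2 (0.25) and IER3 (0.11) were lost. The count was also 1 without DMSO replicate 2, with the same genes lost (0.14, 0.24, 0.15 and 0.083). With the block, FOSB was lost without combination replicate 1 (0.12) or DMSO replicate 1 (0.075), and FOSL1 without combination replicate 1 (0.084) or DMSO replicate 2 (0.072).

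JUN in p53-/- cells had 21.6 and 11.6 RPKM with the combination, against 6.06 and 5.78 with DMSO, and EGR1 92.7 and 44.1, against 40.1 and 25.5. Neither overlapped with DMSO. Summed epithelial markers were at 2310 to 2660 RPKM with the combination, against 2070 to 2210 with DMSO, and fibroblast markers at 3.72 to 4.27, against 2.12 to 2.48. Of 6 epithelial markers tested, 1 rose and 1 fell without the block (17.1% and 14.7% of all genes). None of the 10 genes passed without the block (limma called 17.1% of all genes higher and 14.7% lower, and 3 of the 10 had an unadjusted p under 0.05), and with it 8 rose and FOSL1 fell (26.3% of all genes higher and 22.5% lower). Leaving out combination replicate 1 cost FOSL1 (0.16), FOSL2 (0.18) and JUND (0.066) their calls with the block, DMSO replicate 1 cost FOSL1 (0.25) and FOSL2 (0.13), and DMSO replicate 2 cost FOSL2 (0.068) and JUND (0.089). The comparisons of Entinostat and of the combination share their DMSO libraries, so their values are not independent.

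The combination was also set against each single drug in p53+/+ cells. Over Nutlin-3A alone, FOSL2, JUN and IER2 rose without the block (16.6% of all genes higher and 18.1% lower), JUN by 1.95 ± 0.5 with 32.6 and 11 RPKM, against 5.41 and 3.8. With the block 8 rose and FOSL1 fell (25% higher and 27.4% lower). The calls without the block fell to none without Nutlin-3A replicate 2 (JUN 0.07, IER2 0.094 and FOSL2 0.055) and to 1 without combination replicate 1 (JUN 0.12 and IER2 0.18) or Nutlin-3A replicate 1 (FOSL2 0.063 and IER2 0.056). FOSL2 was lost without combination replicate 2 as well (0.062), and with the block JUND was lost without Nutlin-3A replicate 1 (0.051). Over Entinostat alone no gene passed without the block (limma called 5.16% of all genes higher and 9.69% lower, and 1 of the 10 had an unadjusted p under 0.05), and with it JUND and IER3 rose (12% of all genes higher and 19.3% lower). JUND had 77.5 and 53.9 RPKM with the combination, against 58.9 and 40.3 with Entinostat (log2 change 0.4, adjusted p = 0.014 with the block), overlapping between groups. IER3 had 101 and 67.8 RPKM, against 70.6 and 53.5 (0.43, 0.00076), also overlapping. JUND lost this call without combination replicate 1 (0.09), Entinostat replicate 1 (0.05) or Entinostat replicate 2 (0.099).

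Of the 10 genes, IER3 passed with Nutlin-3A alone, in p53+/+ cells with the block. In p53+/+ cells no gene passed without the block, while limma called 7.89% of all genes higher and 9.5% lower and 1 of the 10 had an unadjusted p under 0.05. With the block IER3 rose (14.1% of all genes higher and 17.4% lower). IER3 had 75 and 53.3 RPKM with Nutlin-3A, against 48.6 and 39.1 with DMSO, without overlap (log2 change 0.53, adjusted p = 0.19 without and 0.00011 with the block). JUN had 5.41 and 3.8 RPKM, against 7.77 and 5.09, a log2 change of -0.43 that did not pass (0.62 and 0.25). FOS had 40.4 and 16.4 RPKM, against 46.4 and 14.1, with a log2 change of 0.01 and a 95% interval of -0.31 to 0.32 with the block. No gene of the 10 passed in p53-/- cells by either model, nor did any of the 12466 tested by limma (0%). Without the block 440 of the 12466 had an unadjusted p under 0.05, a smaller share than that threshold passes when no gene differs. The log2 differences of the 10 lay between -0.22 (JUND) and 0.16 (FOSB) there, and Nutlin-3A and DMSO libraries overlapped for all 10.

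The genotypes differed in FOS, FOSL1 and JUND. FOS was lower in p53-/- cells in every treatment, by 1.38 on the log2 scale with the combination, 1.32 with Entinostat, 0.92 with Nutlin-3A and 1.03 with DMSO. Each of the 4 passed only with the block (adjusted p = 1.1e-05, 7.1e-05, 0.00021 and 0.00043, against 0.28 to 0.69 without it) and kept that call without any single library. In DMSO, p53-/- cells had 21.7 and 6.87 RPKM, against 46.4 and 14.1 in p53+/+ cells. Replicate 1 of p53-/- lay above replicate 2 of p53+/+, so the groups overlapped, but each p53-/- library was under the p53+/+ library of its number.

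FOSL1 was the reverse of FOS. In DMSO it had 108 and 102 RPKM in p53-/- cells, against 47.2 and 68.7 in p53+/+ cells, and with Entinostat 55.9 and 77.5, against 19.2 and 37.6. Groups did not overlap in any of the 4 treatments. Without the block it was higher in p53-/- cells with Entinostat (log2 change 1.27 ± 0.31, adjusted p = 0.043) and with the combination (0.91 ± 0.31, 0.038). With the block it was higher in all 4, including Nutlin-3A (0.66, 0.015) and DMSO (0.88, 0.011). Without the block, limma lost the Entinostat call with no filter (0.095) or the compared groups alone (0.18). The combination call was lost with no filter (0.086), quantile normalization (0.066) or the compared groups alone (0.064). The calls without the block were lost with Entinostat without p53-/- replicate 1 (0.071), p53-/- replicate 2 (0.31) or p53+/+ replicate 1 (0.35), and with the combination without p53-/- replicate 2 (0.26) or p53+/+ replicate 1 (0.26). The calls with the block were lost in DMSO without replicate 1 of p53-/- (0.15) or of p53+/+ (0.098), and with Nutlin-3A without p53-/- replicate 1 (0.22) or p53+/+ replicate 2 (0.09).

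JUND was lower in p53-/- cells, most clearly with Nutlin-3A, where it had 31.6 and 19.7 RPKM, against 47.5 and 44.7 in p53+/+ cells, without overlap. There it passed without the block (log2 change -0.87 ± 0.29, adjusted p = 0.038) and lost that call without p53-/- replicate 2 (0.29) or either p53+/+ library (0.15 and 0.1). With the block it was lower in all 4 treatments, by 0.73 with the combination (adjusted p = 0.00013), 0.38 with Entinostat (0.037), 0.87 with Nutlin-3A (2.9e-05) and 0.39 with DMSO (0.032). Leaving out any 1 of the 4 libraries ended the call in Entinostat (0.12 to 0.21) and in DMSO (0.064 to 0.22). Summed epithelial markers were also lower, at 2310 to 2660 RPKM in p53-/- against 4010 to 4640 in p53+/+ cells with the combination, and at 1720 to 2120 against 2690 to 2790 with Nutlin-3A. Single markers went both ways. In each of these 2 treatments, 1 of 6 tested was higher and 3 lower in p53-/- cells without the block (36.3% and 34.4% of all genes called in either direction). Their part was not tested.

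Counts of genotype calls in either direction without the block were 1 of 10 with the combination (36.3% of all genes), 1 with Entinostat (3.76%), 1 with Nutlin-3A (34.4%) and 0 with DMSO (4.69%, and 2 of 10 at an unadjusted p under 0.05, limma). With the block they were 3, 4, 3 and 5 (52.9%, 13.2%, 50.6% and 13.1%). The further calls were FOSL2 in DMSO (log2 change 0.37, adjusted p = 0.02) and IER3 in DMSO (0.44, 0.0012) and in Entinostat (0.25, 0.037), all higher in p53-/- cells. FOSL2 lost its call without either p53-/- library (0.076 and 0.13) or p53+/+ replicate 1 (0.24). IER3 kept its call in DMSO without any single library and lost it in Entinostat without any 1 of the 4 (0.097 to 0.25). JUN, JUNB, EGR1 and IER2 passed in no treatment by either model. In DMSO their log2 differences were -0.08, 0.11, 0.19 and -0.06, with 95% intervals with the block of -0.66 to 0.5, -0.18 to 0.41, -0.19 to 0.57 and -0.35 to 0.24.

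**Figure D4:**
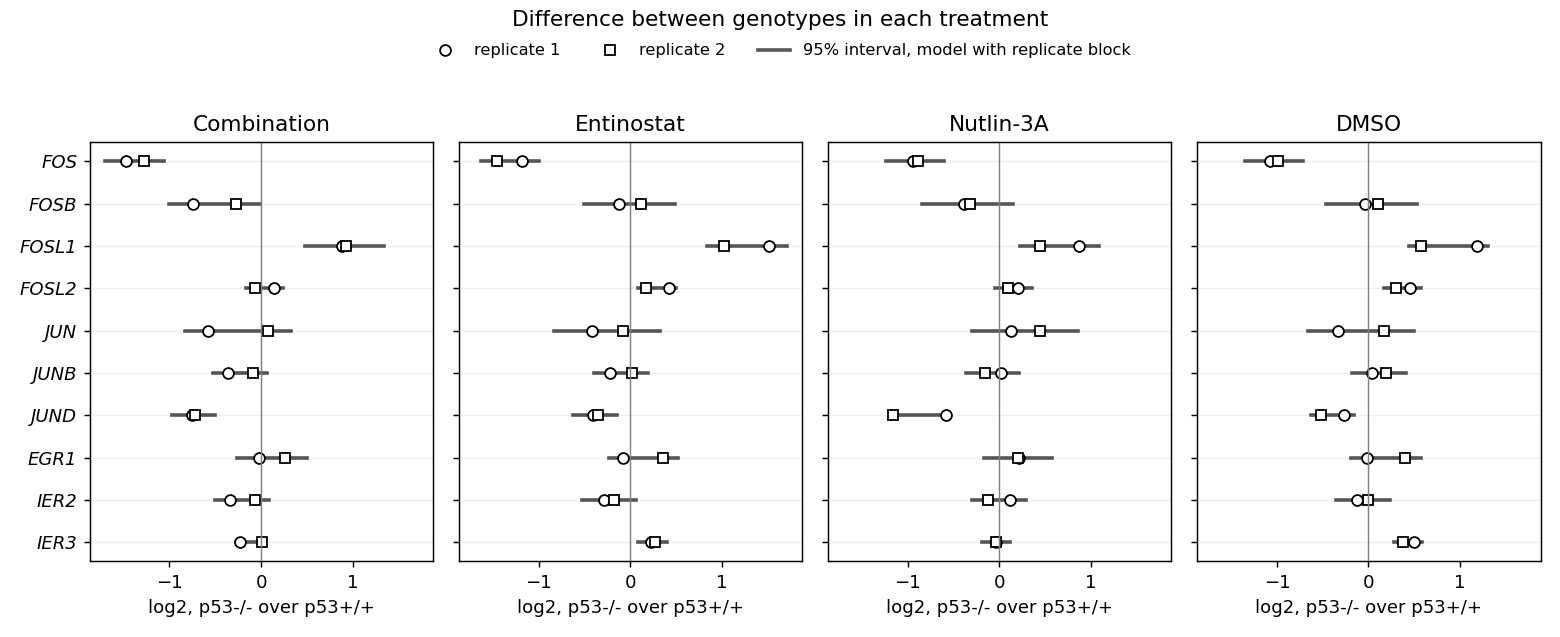
Log2 difference p53-/- over p53+/+ (x axis) of the 10 genes in each treatment. Circles are replicate 1, squares replicate 2, and grey lines the 95% interval of the model with the replicate block. FOS lies below 0 and FOSL1 above 0 in all 4 panels, whereas JUN, JUNB, EGR1 and IER2 intervals include 0 in each.

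The response to Entinostat was not found to differ between genotypes for any of the 10. None passed in either model (0% of all genes without the block, limma, and 0 of the 10 at an unadjusted p under 0.05, and 0.0321% with it), and the p53-/- minus p53+/+ difference in response of JUN was -0.17, with a 95% interval of -0.99 to 0.66 with the block. For Nutlin-3A, 2 responses differed with the block and 0 without it (17.1% and 6.78% of all genes, and none of the 10 had an unadjusted p under 0.05 without it). The log2 change of IER3 was 0.05 in p53-/- and 0.53 in p53+/+ cells, a difference of -0.48 (adjusted p = 0.006 with the block). That of JUND was -0.22 in p53-/- and 0.26 in p53+/+ cells, a difference of -0.48 (0.05 after rounding). JUND lost this call when any of 6 libraries was left out, which were replicate 2 of Nutlin-3A (0.2) and both of DMSO (0.16 and 0.069) in p53-/- cells, and likewise in p53+/+ cells (0.19, 0.17 and 0.069). For the combination, IER3 had a log2 change of 0.36 in p53-/- and 0.92 in p53+/+ cells, a difference of -0.55 (0.37 without and 0.0028 with the block, where 23.8% of all genes were called, against 5.78% without it).

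FOS and FOSL1 compete for the same JUN partners, and the balance of their RNA shifted with both drug and genotype. The ratio of FOS to FOSL1 RPKM was 5.96 and 0.931 in p53+/+ Entinostat libraries, against 0.983 and 0.205 with DMSO. The p53-/- ratios were 0.9 and 0.161 with Entinostat, against 0.201 and 0.0674 with DMSO. Within a replicate number, every Entinostat ratio lay above its DMSO ratio, and every p53-/- ratio lay under its p53+/+ ratio. FOS made up 78.1% and 42.3% of FOS family RPKM in p53+/+ Entinostat libraries, against 45.2% and 15.4% with DMSO, and 41.3% and 12.3% in p53-/- Entinostat libraries, against 15.4% and 5.77% with DMSO. FOSL1 held 76.5% and 85.5% in p53-/- DMSO cells. These shares restate the values tested above and were not tested again.

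**Figure D5:**
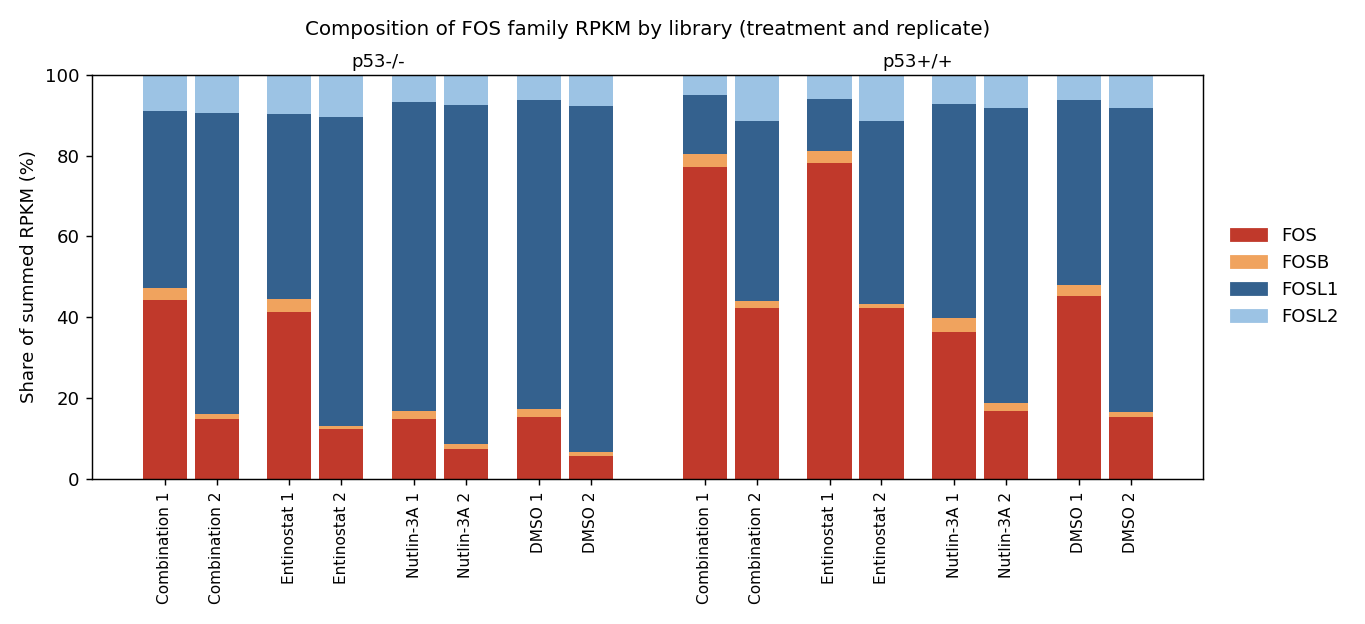
Share of summed RPKM (y axis, percent) of FOS, FOSB, FOSL1 and FOSL2 in each of the 16 libraries, p53-/- on the left and p53+/+ on the right. FOS takes 78.1% in p53+/+ Entinostat replicate 1 and 5.77% in p53-/- DMSO replicate 2.

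The family sums moved less evenly. Summed JUN family RPKM was 216 and 120 in p53+/+ Entinostat libraries, against 111 and 76.7 with DMSO, and 176 and 112, against 103 and 72.4, in p53-/- cells. Summed FOS family RPKM in p53-/- cells was 122 and 101 with Entinostat, against 141 and 119 with DMSO, since the lower FOSL1 outweighed the higher FOS. In p53+/+ cells it was 147 and 82.7, against 103 and 91.2, higher in replicate 1 and lower in replicate 2.

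Other immediate early genes moved in the same comparison. Of 26 listed, 23 were tested, and with Entinostat, with and without Nutlin-3A, 16 rose and 2 fell in p53+/+ and 15 rose and 2 fell in p53-/- cells without the block. With the block 17 rose and 2 fell in p53+/+ and 18 rose and 3 fell in p53-/- cells. Over all tested genes this comparison called 24.6% higher and 24.8% lower in p53+/+ and 24.5% and 20.9% in p53-/- cells without the block, and 30.8% and 31.4%, and 31.5% and 27.8%, with it. The median log2 change of the 23 was 0.65 in p53+/+ and 0.54 in p53-/- cells, beside 0 and 0.02 over all tested genes. CTGF, a matricellular protein gene, averaged 29.5 RPKM with and 1.21 without Entinostat in p53+/+ cells (log2 change 3.69, adjusted p = 9.8e-05). CYR61, its relative, averaged 42.6 and 13.1 RPKM (1.53, 0.0013), the kinase gene SGK1 3.57 and 0.424 (2.14, 1.1e-05) and the transcription factor gene KLF2 42.5 and 11.3 (1.78, 0.00024). CTGF in p53-/- cells averaged 31.4 RPKM with and 2.58 without Entinostat (3.12, 3e-04) and ARC 8.95 and 3.8 (1.07, 0.025). With Nutlin-3A in p53+/+ cells 3 rose and 2 fell without the block (7.89% of all genes higher and 9.5% lower), and 6 rose and 3 fell with it (14.1% and 17.4%). Among them was BTG2, a p53 target, at 74.7 against 11.2 RPKM (2.69, 8.5e-07).

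The gene lists that follow were counted in the same comparison of Entinostat, with and without Nutlin-3A, against the same shares of all tested genes. Of 14 listed partners of the AP-1 dimer (ATF, BATF, JDP and MAF genes) 10 were tested. Without the block 1 rose and 2 fell in p53+/+ and 1 rose and 1 fell in p53-/- cells, and with it 1 rose and 2 fell in each genotype (median log2 changes -0.01 and 0.02). ATF3, a stress-induced partner of JUN, averaged 19.7 RPKM with and 12.2 without Entinostat in p53+/+ cells (0.69, adjusted p = 0.0074, limma), and 13.1 and 5.44 in p53-/- cells (1.18, 0.00033). ATF3 also rose with Nutlin-3A in p53+/+ cells, to 18.3 RPKM, against 6 with DMSO (1.53, 0.0014). MAFG fell with Entinostat, by 0.37 in p53+/+ and 0.47 in p53-/- cells.

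Kinases and factors upstream of these genes were all 20 tested. Without the block 4 rose and 2 fell in p53+/+ and 3 rose and 3 fell in p53-/- cells (median log2 changes 0.07 and 0.11), each a smaller share than over all tested genes. With the block 6 rose and 3 fell in p53+/+ and 9 rose and 3 fell in p53-/- cells. The 9 that rose were then a larger share than over all tested genes (31.5%), and the other counts smaller ones. ELK1, a partner of serum response factor, fell to 13.2 RPKM, against 17 without Entinostat, in p53+/+ cells (-0.36, adjusted p = 0.00037, limma). MKL1 and MKL2, coactivators of serum response factor, rose by 0.42 and 0.31 in p53+/+ cells (0.013 and 0.0017). Among feedback genes of ERK signalling, 12 of 13 were tested. Without the block 2 rose and 1 fell in p53+/+ and 3 rose and 3 fell in p53-/- cells, and with it 3 rose and 3 fell in p53+/+ and 4 rose and 3 fell in p53-/- cells. DUSP5, a phosphatase of ERK, rose by 0.56 and 0.49 (0.00023 and 0.00055) and SPRY4, an inhibitor of the pathway, fell by 0.77 and 0.75 (7.5e-05 and 1e-04). DUSP6, which also dephosphorylates ERK, fell by 0.77 in p53-/- cells (0.0014).

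Among 20 listed target genes of AP-1 and EGR1 and the corepressors of EGR1, 17 were tested. With Entinostat 6 rose and 7 fell in p53+/+ cells by either model. In p53-/- cells 5 rose and 5 fell without the block, and 8 rose and 6 fell with it. The median log2 changes were -0.14 in p53+/+ and 0.07 in p53-/- cells. EREG, a ligand of the EGF receptor, fell to 19.3 RPKM, against 91.8 without Entinostat, in p53+/+ cells (-2.24, adjusted p = 1.1e-05, limma), and to 25, against 63.5, in p53-/- cells (-1.34, 0.00014). HMGA2, a chromatin protein gene, fell by 1.8 and 1.22 (0.00038 and 0.0043), and PLAU, the urokinase gene, by 1.45 in p53+/+ cells (0.0033). HBEGF, another ligand of the EGF receptor, rose by 0.87 in p53-/- cells (0.00079). Of the 6 heat shock genes, 1 rose with Entinostat in each genotype without the block, DNAJB1, by 1.21 in p53+/+ and 1.2 in p53-/- cells (7e-04 and 0.00081). In p53+/+ cells 4 of the 6 fell with the combination over DMSO and 4 fell with Nutlin-3A, without the block (median log2 changes -0.58 and -0.66, beside 26.8% and 9.5% of all genes lower). Likewise 4 of the 6 were higher in p53-/- than in p53+/+ cells with the combination and with Nutlin-3A (medians 0.72 and 0.76, beside 36.3% and 34.4% of all genes called in either direction). Their part in the results of the 10 genes was not tested.

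Over the 8 group means, which carry the Entinostat contrast, log2 levels of JUN and IER2 correlated at r = 0.99 and JUNB and IER2 at 0.99. JUN and JUNB correlated at 0.98, and JUNB and EGR1 at 0.96. FOS and FOSL1 ran opposite, at r = -0.95. Among 11503 other genes with a mean of at least 1 RPKM, those most like FOS were FRG1JP (r = 0.994), PEX11A (0.993) and AACS (0.992), those most like FOSB included ATP6AP2 (0.985) and LINC00174 (0.977). FOSL1 was most closely matched by ZNF587B (0.998), ZMYM6NB (0.99) and SYTL3 (0.979), and FOSL2 by MSX2 (0.987), C22orf46 (0.982) and MED20 (0.981). For JUN they were CSRP2 (0.997), HPCAL4 (0.995) and RIMKLA (0.994), for JUNB MKNK1 and MIDN (0.998 each) and CRISPLD2 (0.997), and for JUND PRAF2, CCDC64B and FAM193B (0.99 each). EGR1 had ZFP36 and FOXO3 (0.994 each) and SEMA3C (0.993), IER2 had C1orf115 (0.997), ATP2A3 and HPCAL4 (0.996 each), and IER3 had LTB4R (0.979), WDR26 (0.977) and ZNF252P (0.973). With 8 points and so many candidates these values describe similarity only.

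Annotated exons of another gene overlap those of 3 of the 10 genes on the opposite strand (GENCODE 29), over 14.2% of exon bases for JUNB (HOOK2), 30.8% for IER2 and 26.5% for IER3 (antisense genes). The labels name a stranded library kit but not a strand setting for counting, so reads of these pairs cannot be told apart. The other 7 genes share no exon bases with another gene.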

How the data were processed

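RNA of 16 libraries made with a stranded mRNA kit, per the labels' protocols, was sequenced. The authors deposited RPKM per gene, and the submitters' processing notes name Bowtie2, Partek and hg19. Their versions, the gene models and the strand setting: not given in the sources used here. Alignments per library numbered 45902800 to 55507300, and RPKM allow no counting interval.

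The 10 genes and the gene lists were chosen with earlier results of these data known. Values were log2(RPKM + 0.5), which understates folds of low genes, and folds are ratios of mean RPKM. Genes averaging 0.5 RPKM or more over the libraries (12466, or 60.5%) were tested with limma 3.58.1 in R 4.3.3, with 8 group means, 8 residual and 4.09 prior degrees of freedom, a variance trend and Benjamini-Hochberg adjustment over all tested genes, calling at 0.05 in 17 comparisons. The row of alignment totals was left out. The model without the block was tried on simulated data for Nutlin-3A over DMSO in p53-/- cells. The simulation held no offset between replicates, and the model with the block was not tried. All 10 genes are named, and up to 4 called genes per list with the largest change and a mean of at least 1 RPKM. CDKN1A and MDM2 are named as checks, with up to 3 genes most like each of the 10. Some results that this rule would name are not reported here.

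A second model held the replicate number, given in titles and labels, as a block. Replicate 1 minus replicate 2 correlated over genes between groups in all 28 pairs of groups (r 0.27 to 0.78, median 0.43), so numbers were taken to pair samples. Alternatives were other pseudocounts, filters, scalings, no trend, the compared groups alone and leaving out each library, the last also with the block, which was added after seeing the data. Promoters are RefSeq sequences, searched on both strands.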

Additional observations from a re-analysis of the deposited data

Results flagged for a closer look

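There were 3 differences in response between genotypes picked out because the test of the difference itself passed, in each case with the replicate block and not without it. The response of JUND to Nutlin-3A was lower in p53-/- than in p53+/+ cells by 0.48 on the log2 scale (a difference of -0.48). The response of IER3 to Nutlin-3A differed by -0.48, and that to the combination by -0.55. IER3 was lower in response in both replicate pairs of each comparison, by -0.54 and -0.42 for Nutlin-3A and by -0.73 and -0.38 for the combination. The 2 IER3 comparisons share their DMSO libraries. With the block, limma called 2 of the 10 genes for the Nutlin-3A difference, beside 17.1% of all tested genes. For the combination it called 1 of the 10, beside 23.8%. JUND lost its call when some of the single libraries were left out.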

How the results depend on the processing

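With the replicate block, limma called 9 of the 10 genes with Entinostat, 10 with the combination and 1 with Nutlin-3A over DMSO in p53+/+ cells, 9 for the combination over Nutlin-3A and 2 over Entinostat. It called 9 with Entinostat and 9 with the combination in p53-/- cells, and 9 in each genotype for pooled Entinostat. Between genotypes it called 3 with the combination, 4 with Entinostat, 3 with Nutlin-3A and 5 with DMSO, and for differences in response 1 with the combination and 2 with Nutlin-3A. The block changed no other count. Calls over all tested genes rose with it as well. With Entinostat over DMSO they went from 3434 to 5565 in p53+/+ and from 3520 to 5677 in p53-/- cells. With the combination over DMSO they went from 6236 to 7981 and from 3965 to 6088. Between genotypes in DMSO they went from 585 to 1634. Leaving out single libraries as well, added after seeing the data, gave 1 to 2 for Nutlin-3A, 7 to 9 for Entinostat and 8 to 10 for the combination in p53+/+ cells, 8 to 9 over Nutlin-3A and 1 to 4 over Entinostat. In p53-/- cells it gave 6 to 8 for Entinostat and 6 to 9 for the combination. Between genotypes it gave 3 to 7 with the combination, 2 with Entinostat, 2 to 3 with Nutlin-3A and 2 to 4 with DMSO, and 1 to 2 for either response difference.

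Without the block, no filter on low values gave 1 gene with Entinostat and 2 with the combination in p53+/+ cells, 0 with Entinostat and 3 for pooled Entinostat in p53-/- cells, and 0 between genotypes with the combination, Entinostat or Nutlin-3A. Over all genes, in the same order, it gave 3313 and 7172 calls in p53+/+ cells, against 3434 and 6236 with the filter. In p53-/- cells it gave 3354 and 6084, against 3520 and 5659. Between genotypes it gave 4882, 640 and 4184, against 4529, 469 and 4286. Median of ratios scaling gave 0 with Entinostat and quantile normalization 1 with the combination in p53-/- cells. Over all genes these gave 3701 calls, against 3520, and 3021, against 3965. Fitting the compared groups alone gave 2 with the combination in p53-/- cells, and between genotypes 0 with the combination, 0 with Entinostat, 2 with Nutlin-3A and 1 with DMSO. Over all genes this fit gave 3326 calls with the combination in p53-/- cells, against 3965. Between genotypes it gave 1688, 131, 4002 and 500, against 4529, 469, 4286 and 585. Leaving out single libraries gave 0 to 3 with Entinostat, 1 to 7 with the combination and 0 to 4 for the combination over Nutlin-3A in p53+/+ cells. In p53-/- cells it gave 0 with Entinostat and 0 to 2 with the combination, and for pooled Entinostat 4 to 8 in p53+/+ and 3 to 6 in p53-/- cells. Between genotypes it gave 0 to 2 with the combination and 0 to 1 with Entinostat or Nutlin-3A. Single genes were recomputed for the 85 pairs of a gene and a comparison called by either model, of which 1 turned in direction, FOSB in the p53+/+ combination over DMSO, at -0.08 without combination replicate 1, in a range of -0.08 to 1.62 over single libraries left out. With the block, the log2 change of FOSB without that library was 0.53. The cause was not tested.

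Over all genes, calls with Entinostat in p53+/+ cells numbered 3434, against 779 to 2797 without single libraries and 2915 to 5565 under the other alternatives, and those between genotypes in DMSO numbered 585, against 239 to 341 and 491 to 1634. With 2 libraries a group, 1 library can decide a call. Other pseudocounts and a filter at 1 RPKM changed no call among these 85.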
